A study of Mus musculus with 2 samples.

Results

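Polycomb repressive complex 2 (PRC2) was followed through its 10 genes Ezh1, Ezh2, Eed, Suz12, Rbbp4, Rbbp7, Jarid2, Mtf2, Phf1 and Phf19, out of 23220 named genes in the data. They were chosen by name as the subunits of the complex, and the value of each is the sum over its RefSeq transcripts and over the transcript models of 300 nt or more that the authors' assembly placed on the same strand and exons. The 2 libraries hold poly(A) RNA of spermatogonial progenitor cells, the germ cells that sustain sperm production, isolated 8 days after birth from the testes of C57BL/6 mice. The wild-type library is labelled wild-type and the knockout library is labelled Dnmt3l knockout. Dnmt3l encodes a partner of the de novo DNA methyltransferases that has no catalytic activity of its own. The knockout allele, the number of animals behind each library and whether animals were pooled are not given in the sources used here. With 1 library per genotype no difference here has a replicate check and no test was possible. Values are FPKM, fragment numbers scaled by transcript length and by the size of the library, and the bounds beside them are the sums of the deposited bounds of each transcript, which cover the estimate within a library only.

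PRC2 places methyl groups on lysine 27 of histone H3, a mark of silent developmental genes. EZH1 or EZH2 carries the catalytic SET domain and is active only when bound to EED, which reads the mark, and to SUZ12, the scaffold. RBBP4 and RBBP7 are histone chaperones shared with other chromatin complexes. JARID2 defines one form of the complex, and a Polycomb-like protein (MTF2, PHF1 or PHF19) the other, and both kinds of partner help to bring it to CpG islands. In male germ cells the complex is known to hold somatic and meiotic genes silent.

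Dnmt3l itself had 1.67 FPKM in the wild-type library and was listed at 0 in the knockout library. A value listed at 0 in these files may be a failed estimate as well as absence, so this is a weak check of the label. All 10 germ cell markers examined were present, with summed levels of 1272 FPKM in wild-type and 1166 FPKM in knockout RNA. By summed FPKM, 5 of them were higher and 5 lower in the knockout library. Single markers differed more than the sum. Kit, the receptor of differentiating spermatogonia, had 21.7 and 5.93 FPKM (-1.71 as a log2 ratio of knockout to wild-type FPKM, 1 added to each) and Zbtb16, a marker of undifferentiated spermatogonia, had 55.4 and 27.9 FPKM (-0.97, and -1.96 per coding base). Id4 had 14.4 and 35.0 FPKM (1.23), and Gfra1 had 27.4 and 48.5 FPKM (0.80, but -0.37 per coding base). Sall4 and Lin28a were higher by summed FPKM (0.25 and 0.08) and lower per coding base (-0.65 and -0.21). Per coding base, Id4 and Mael alone of the 10 were higher. Markers of the somatic cells of the testis were present in both libraries, and each list was higher in sum in the knockout library. The summed level of 10 Sertoli cell markers, each above 0, was 355 and 819 FPKM, and all 10 were higher in the knockout library. For macrophages it was 418 and 816 FPKM (7 of 9 higher, Cd68 listed at 0 in the knockout library), for peritubular myoid cells 184.7 and 274.9 FPKM (4 of 5 higher), for Leydig cells 60.5 and 135.7 FPKM (4 of the 5 measured higher, Star listed at 0 in both) and for endothelial cells 54.6 and 111.9 FPKM (5 of 7 higher). These somatic counts are by summed FPKM. Per coding base, the Sertoli markers Wt1 (-0.31) and Gata4 (-0.29) were lower and the other Sertoli markers higher. The part of these germ cell and somatic markers in the values of PRC2 genes and of the related lists was not tested. In bulk RNA, fewer cells of a type and less RNA per cell cannot be told apart.

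Of the 10 PRC2 genes, Suz12 and Mtf2 were the most reduced in the knockout library, Phf1 and Ezh1 the most increased in summed FPKM, and Ezh2, Rbbp4 and Rbbp7 were within 0.16 on the log2 scale of their wild-type level. All 10 passed the filter of 1 FPKM in at least 1 library that 13792 genes passed. Differences are log2((knockout FPKM + 1)/(wild-type FPKM + 1)), a scale that understates the change of low genes. Suz12 alone was at least 2-fold apart, 1 of 10 members, against 11.2% of all genes compared. It was lower, as 3.49% of all genes were by this margin, and 0 members were at least 2-fold higher, against 7.67% of all genes. At 1.5-fold there were 4 of 10, against 31.7% of all genes. Ezh1 and Phf1 were higher (2 of 10, against 22.7%), and Suz12 and Mtf2 lower (2 of 10, against 9.02%). Counting any size of difference, 7 members were higher and 3 lower, where 66% of all genes were higher. The bounds of the libraries did not overlap for 6 members, against 51.6% of all genes. With 10 genes such shares are coarse, and nothing particular to PRC2 is read from them. The median log2 ratio of the members was 0.10, below the 0.22 of all genes.

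**Figure D1:**
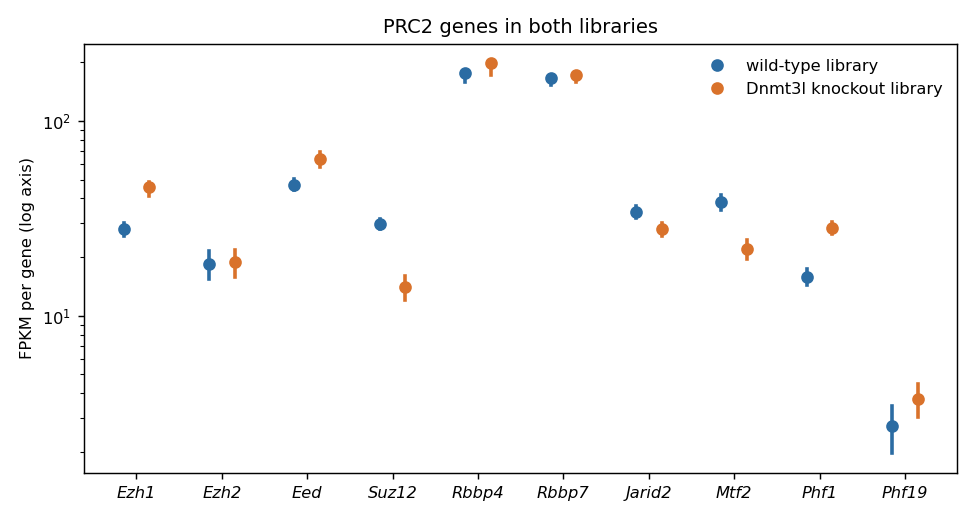
FPKM per gene on a log axis for the 10 PRC2 genes in the wild-type (blue) and Dnmt3l knockout (orange) library, with vertical lines from the lower to the upper summed bound of the estimate. Rbbp4 and Rbbp7 stand highest in both libraries, Phf19 stands below 4 FPKM, and Suz12 and Mtf2 are lower and Phf1 is higher in the knockout library without overlap of the lines.

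Ezh1, the catalytic subunit of weaker methyltransferase activity that is common in resting cells (chr11:101191115-101226450, minus strand, mm10), had 27.8 FPKM (bounds 25.6 to 30.1) in wild-type RNA and 45.6 FPKM (41.0 to 48.4) in knockout RNA, a log2 ratio of 0.69. The higher value was not carried by full-length transcripts. The full-length RefSeq transcript NM_007970 had 23.7 FPKM (22.1 to 25.2) in wild-type RNA and 17.0 FPKM (15.9 to 18.2) in knockout RNA. The wild-type library had a further full-length model of 4.12 FPKM that ends 61 nt short of the RefSeq 3′ end and uses an acceptor 5 nt away. The knockout library instead had a 3-exon model of 28.6 FPKM and 2082 nt (chr11:101191115-101193837) that covers exons 19 to 21 and holds 9.96% of the coding bases. This 3′ model made up 62.7% of the gene's value in the knockout library, and no such model was assembled in the wild-type library. Averaged over coding bases, a coding level, Ezh1 was therefore lower in the knockout library, with 27.8 and 19.8 FPKM, a log2 ratio of -0.47. Over the first 1000 nt the log2 ratio was -0.68 and over the last 1000 nt it was 0.71.

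Ezh2, the catalytic subunit of dividing cells (chr6:47530274-47595030, minus strand), had 18.5 FPKM (15.5 to 21.5) and 18.8 FPKM (15.9 to 21.7), a log2 ratio of 0.02 with bounds that overlap almost wholly. Its transcripts were distributed differently. A pair of splicing choices separates them, and the sequences are shown because both keep the reading frame and so give EZH2 forms of different length. In these sequences the capitals are the stretch that can be left out and the lower case letters are the 20 bases of transcript on each side, written 5′ to 3′ from the GENCODE M21 transcript Ezh2-201.
Ezh2 exon of 126 nt: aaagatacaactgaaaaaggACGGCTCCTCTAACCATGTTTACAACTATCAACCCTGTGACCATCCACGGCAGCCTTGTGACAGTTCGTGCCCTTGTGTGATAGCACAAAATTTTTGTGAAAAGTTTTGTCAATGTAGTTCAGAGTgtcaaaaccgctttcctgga
Ezh2 stretch of 27 nt: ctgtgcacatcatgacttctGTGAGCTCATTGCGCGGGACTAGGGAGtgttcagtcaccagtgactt
The 126-nt exon (chr6:47541845-47541970) lies in codons 511 to 553 of the coding sequence, in the cysteine-rich region before the SET domain. It was skipped in models of 4.62 FPKM (3.69 to 5.57) in wild-type RNA and 5.41 FPKM (4.42 to 6.41) in knockout RNA, which is 25.02% and 28.8% of the gene. The proportion was thus similar, and GENCODE, but not RefSeq, annotates the skipping junction. The 27-nt stretch (chr6:47576536-47576562, codons 74 to 82) was left out through an upstream donor in models of 8.54 FPKM (7.35 to 9.74) in wild-type RNA and 3.44 FPKM (2.69 to 4.19) in knockout RNA, or 46.2% and 18.3% of the gene. The bounds of these 2 values do not overlap. The RefSeq transcript that holds both stretches, NM_007971, had 5.31 FPKM (4.41 to 6.19) and 9.92 FPKM (8.79 to 11.1), while NM_001146689 was listed at 0 in both.

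Ezh1 exceeded Ezh2 in both libraries, 1.504-fold in wild-type and 2.43-fold in knockout RNA by summed FPKM. By the coding level the ratio was 1.53 in wild-type and 1.08 in knockout RNA, so the direction of the change in balance depends on whether the 3′ model is counted. The catalytic pair together had 46.3 and 64.4 FPKM, or 45.9 and 38.3 FPKM by the coding level.

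Eed, the WD-repeat subunit that binds the trimethylated lysine and stimulates the enzyme (chr7:89954654-89980976, minus strand), had 47.0 FPKM (44.1 to 50.02) in wild-type RNA and 63.9 FPKM (58.2 to 69.5) in knockout RNA, a log2 ratio of 0.43. The wild-type value came entirely from NM_021876. In the knockout library that transcript had 27.6 FPKM (25.3 to 29.9), and an assembled model had 36.2 FPKM (32.9 to 39.7). The model begins with a different exon 880 nt inside the gene, ends 213 nt before the RefSeq 3′ end and holds 91.4% of the coding bases. The log2 ratio was 0.36 by the coding level, -0.11 over the first 1000 nt and -0.75 for RefSeq transcripts alone. The direction for Eed thus depends on how the knockout model is counted.

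Suz12, the scaffold that joins the enzyme to its accessory partners (chr11:79993106-80034123, plus strand), had 29.7 FPKM (28.0 to 31.3) in wild-type RNA and 14.04 FPKM (12.1 to 16.0) in knockout RNA, a log2 ratio of -1.03. It went from above 78.3% of the genes compared to above 53% of them. It was below 2-fold apart with a pseudocount of 5 (-0.87) and from the coverage values (-0.93). The log2 ratios were -1.05 over the first and -1.16 over the last 1000 nt and -1.04 by the coding level. These levels add up whole models and are not read coverage. Each Suz12 form above 0 spans nearly the whole transcript, so they largely repeat the summed value. In the wild-type library the whole value came from NM_199196. In the knockout library NM_199196 had 7.33 FPKM (6.56 to 8.10), and a pair of other forms appeared. One, NM_001163018, lacks the 69-nt exon 4 (chr11:79999057-79999125) and had 2.17 FPKM (1.67 to 2.68), 15.5% of the gene, against 0 listed in the wild-type library. The exon covers codons 131 to 154 and is printed in capitals between 20 bases of its neighbours, from the GENCODE M21 transcript Suz12-201, since its loss shortens SUZ12 without shifting the frame.
Suz12 exon 4: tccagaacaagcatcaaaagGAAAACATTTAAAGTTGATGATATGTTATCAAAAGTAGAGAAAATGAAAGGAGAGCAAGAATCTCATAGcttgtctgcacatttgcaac
The other form was a model of 4.54 FPKM (3.87 to 5.20), 32.3% of the gene, that keeps an 81-nt intron (chr11:79995664-79995744) which RefSeq and GENCODE both remove. The Suz12 transcript is 4373 nt long. The class with a longest transcript of 4000 nt or more and below 5000 nt held 1581 genes. Of these 2.85% were at least 2-fold lower, against 3.49% of all genes. The median log2 ratio fell with length. It was 0.262 from 2000 nt, 0.101 from 3000 nt, -0.000806 in this class and -0.091 from 5000 to below 6000 nt. Ezh2, Eed, Rbbp7 and Phf1 are in the shortest of these classes, Mtf2 in that of Suz12 and Jarid2 in the longest. The part of length in the values of the members was not tested. Eed exceeded Suz12 by 1.58-fold in wild-type and 4.55-fold in knockout RNA (4.35-fold by the coding level).

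**Figure D2:**
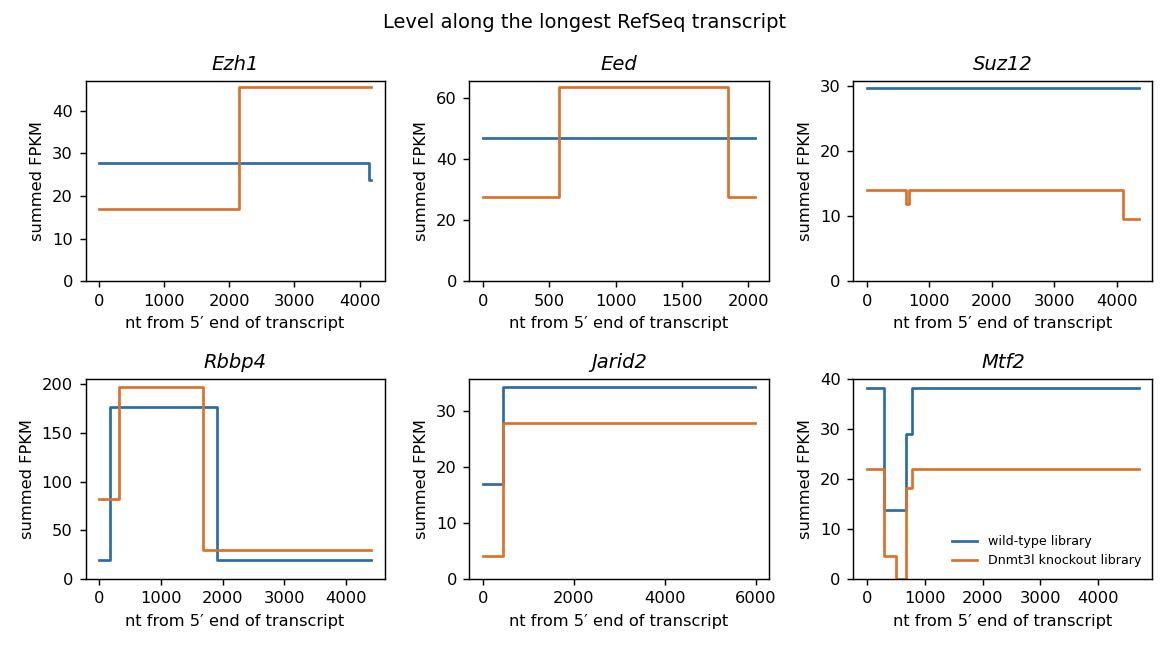
Level at each base (the FPKM of every model that covers it, added up), on the vertical axis, against the distance in nt from the 5′ end of the longest RefSeq transcript, for 6 PRC2 genes in the wild-type (blue) and knockout (orange) library; these are levels of whole models and not read coverage. Suz12 is lower in the knockout library along its length, Ezh1 changes order where the knockout 3′ model begins, and the Rbbp4 models end far before the RefSeq 3′ end in both libraries.

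Rbbp4 and Rbbp7, the histone-binding chaperones, were the most abundant members. Rbbp4 (chr4:129307100-129335370, minus strand) had 176.2 FPKM and 196.9 FPKM, a log2 ratio of 0.16, and Rbbp7 (chrX:162760372-162779090, plus strand) had 166.7 FPKM and 172.2 FPKM, a log2 ratio of 0.05. Each of these values lies above its own deposited upper bound (172.6 and 196.4 FPKM for Rbbp4, 165.7 and 170.5 FPKM for Rbbp7), so the bounds are not usable as an error for this pair. Rbbp7 had 1 RefSeq transcript and no model, and shares 942 nt at 97.1% identity with the predicted gene Gm6382, from which its reads may not be separable. The same limit holds for stretches of other members that are identical to another gene's transcript, 799 nt (Gm26722) and 521 nt (Sync) of Rbbp4, 396 nt of Mtf2 (Tmed5) and 261 nt of Eed (E230029C05Rik). Most of Rbbp4 came from models that stop 2526 nt (wild-type) or 2744 nt (knockout) before the RefSeq 3′ end, and these carried 89.3% and 85.1% of the gene. The full-length RefSeq transcript had 18.9 FPKM (17.6 to 20.1) and 29.4 FPKM (27.6 to 31.1). The 5′ exons of the short models differed between the libraries. The wild-type model of 157.4 FPKM began 393 nt inside the RefSeq start. In the knockout library a model of 114.4 FPKM began 509 nt inside it and lacked the 148-nt exon 2, and another of 53.2 FPKM began at the RefSeq start. The skipped exon is coding, its length is not a multiple of 3, and neither RefSeq nor GENCODE annotates the skipping. The model of 53.2 FPKM leaves out 1 coding base through a donor that neither annotates. The coding level counts the coding bases of such models whatever their reading frame. Rbbp7 was 0.946 of Rbbp4 in wild-type and 0.874 of it in knockout RNA, and 0.957 and 0.945 by the coding level. The order was the opposite per exon base of the longest transcripts, with Rbbp7 at 2.07 and 2.03 times Rbbp4, and from RefSeq transcripts alone, at 8.84 and 5.87 times.

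Jarid2, the DNA-binding partner that helps recruit the complex and is itself methylated by it (chr13:44730774-44921643, plus strand), had 34.2 FPKM (31.7 to 36.7) in wild-type RNA and 27.9 FPKM (25.7 to 30.0) in knockout RNA, a log2 ratio of -0.29. The summed value hides a larger difference between its start sites. RefSeq places starts 497 nt apart that lead to the same coding sequence of 3702 nt. The downstream start, NM_001205043, had 16.9 FPKM (15.7 to 18.1) in wild-type RNA and 4.08 FPKM (3.55 to 4.61) in knockout RNA, or 49.4% and 14.6% of the gene. The upstream start had 17.3 FPKM from NM_001205044 in the wild-type library (16.1 to 18.5). In the knockout library it had 19.7 FPKM from the same transcript (18.7 to 20.8) and 4.04 FPKM from NM_021878 (3.50 to 4.58), which uses a donor 46 nt further on. By these estimates the downstream start was reduced and the upstream start was not, and the bounds of the downstream values do not overlap. The estimates divide a gene's fragments among transcripts that share their coding sequence, and are not a measurement of where transcription begins. The promoter windows of both starts are shown because the transcripts that use them differed in opposite directions between the libraries and because DNMT3L is known for its part in CG methylation. Each runs from 250 bases before to 50 bases after the start, from RefSeq on GRCm38.p6, plus strand, with every CG in capitals.
Jarid2 upstream start, chr13:44730524-44730823: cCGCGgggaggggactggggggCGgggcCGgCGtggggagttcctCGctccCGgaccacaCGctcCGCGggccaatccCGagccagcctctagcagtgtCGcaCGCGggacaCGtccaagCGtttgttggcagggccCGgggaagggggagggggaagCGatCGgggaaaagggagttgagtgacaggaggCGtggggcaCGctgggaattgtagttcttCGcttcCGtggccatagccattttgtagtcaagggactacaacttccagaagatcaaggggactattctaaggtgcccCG
Jarid2 downstream start, chr13:44731021-44731320: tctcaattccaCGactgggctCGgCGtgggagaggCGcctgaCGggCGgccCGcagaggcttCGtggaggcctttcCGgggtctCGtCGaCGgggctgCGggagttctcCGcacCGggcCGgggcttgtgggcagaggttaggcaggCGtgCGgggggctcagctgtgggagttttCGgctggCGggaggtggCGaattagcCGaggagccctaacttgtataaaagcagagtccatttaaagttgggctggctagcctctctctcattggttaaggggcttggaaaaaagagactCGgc
The windows hold 24 and 23 CG, with observed to expected ratios of 0.81 and 0.831, and the median over 32851 promoters of the same length was 7. By CG content the Jarid2 windows are therefore alike. These files hold no methylation measurement, and a part of methylation in the start values was not tested. Dtnbp1, a gene on the opposite strand 437 nt beyond an end of Jarid2, had 21.5 and 44.7 FPKM. Its place relative to the start sites is not given here, and the library protocol names no strand-marking step.

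The Polycomb-like proteins bind CpG-rich DNA and methylated lysine 36 of histone H3 and lengthen the stay of PRC2 on chromatin. Mtf2 (chr5:108065674-108109219, plus strand) had 38.2 FPKM (34.7 to 41.7) in wild-type RNA and 22.0 FPKM (19.6 to 24.6) in knockout RNA, a log2 ratio of -0.77. Its main coding transcript NM_013827 differed little, with 15.3 FPKM (14.1 to 16.6) and 13.6 FPKM (12.5 to 14.7). The difference lay in other forms. NM_001253877, which carries an extra noncoding exon of 362 nt, had 13.8 FPKM in the wild-type library (12.6 to 14.96) and was listed at 0 in the knockout library. The noncoding transcript NR_045608 had 9.10 FPKM (8.10 to 10.1) and 3.89 FPKM (3.24 to 4.56). A knockout model of 4.55 FPKM (3.89 to 5.20) holds the whole coding sequence and includes the first 202 nt of the extra exon. The wild-type library also had 2 unspliced models without a strand inside Mtf2 introns, of 6.44 FPKM (2890 nt) and 5.47 FPKM (429 nt), which were not counted for the gene.

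Phf1 (chr17:26933127-26937890, plus strand) had 15.9 FPKM (14.4 to 17.4) in wild-type RNA and 28.2 FPKM (26.2 to 30.2) in knockout RNA, a log2 ratio of 0.79, from 1 RefSeq transcript in both. The wild-type library also had a 24-exon model of 2.00 FPKM that runs from the upstream gene Kifc5b through 1729 exon bases of Phf1 and was not counted. With it, at the coding level, the log2 ratio was 0.66. The neighbour Cuta, 82 nt away on the opposite strand, had 56.4 and 92.9 FPKM, while Kifc5b had 9.19 and 8.98 FPKM. Phf19 (chr2:34893755-34913976, minus strand), which is known from embryonic stem cells, was the least abundant member. It had 2.71 FPKM (1.97 to 3.44) and 3.73 FPKM (3.02 to 4.46), a log2 ratio of 0.35 with bounds that overlap. It stood above 18.6% and 21.4% of the genes compared.

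Summed over the Polycomb-like family the level was nearly the same, 56.7 and 54.0 FPKM, while its makeup differed. Mtf2 gave 67.3% of the sum in wild-type and 40.8% in knockout RNA, Phf1 gave 28.0% and 52.3%, and Phf19 gave 4.77% and 6.91%. Mtf2 was 2.41 times Phf1 in the wild-type library and 0.780 of it in the knockout library, so their order was exchanged. By the coding level the ratios were 2.32 and 0.829, and the order was exchanged there too. That level counts every transcript over the coding bases, so it includes the noncoding NR_045608, which holds 95.5% of those of Mtf2. Mtf2 exceeded Phf19 by 14.1-fold and 5.90-fold.

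**Figure D3:**
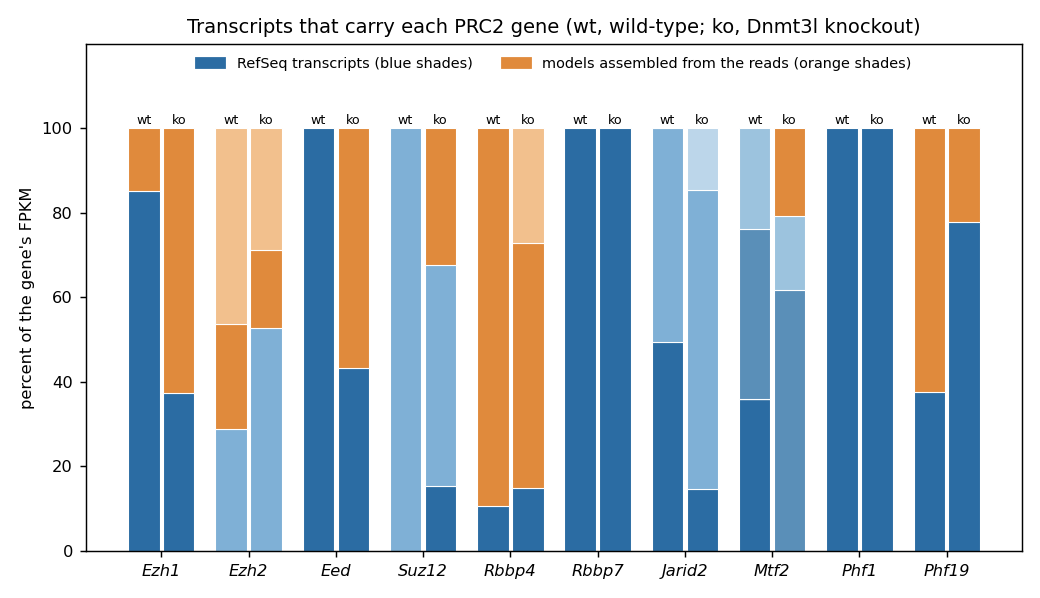
Percent of each gene's summed FPKM carried by each transcript, with RefSeq transcripts in blue shades and models assembled from that library's reads in orange shades, for the wild-type (wt) and knockout (ko) library; shades separate transcripts within a gene. Models carry 62.7% of Ezh1 and 56.8% of Eed in the knockout library against 14.8% and 0% in the wild-type library, and most of Rbbp4 in both.

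Assembled models therefore bear on which members can be called higher or lower. Each member was also measured from RefSeq transcripts alone, per exon base, per coding base and at each end. Over these 6 measures the direction was the same for 7 members and differed for 3 (Ezh1, Ezh2 and Eed), against 36.7% of 13302 genes with all 6 measures. Suz12, Mtf2 and Jarid2 were lower in the knockout library by all 6, and Phf1, Phf19, Rbbp4 and Rbbp7 higher. Rbbp7 has 1 RefSeq transcript and no model, so its 6 measures are the same value and could not differ. Phf1 has 1 RefSeq transcript and no counted model, so its RefSeq value is its summed value. The median over the members was -0.12 from RefSeq transcripts, 0.06 per exon base and 0.03 per coding base, below the 0.11, 0.16 and 0.13 of all genes. The median gene of 1 FPKM or more in both libraries was itself higher in the knockout library by 0.21 on the log2 scale. Relative to that median gene, Ezh2, Rbbp4 and Rbbp7 were lower (-0.18, -0.05 and -0.16), and Suz12 and Mtf2 stood at -1.24 and -0.97 and Phf1 at 0.59.

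**Figure D4:**
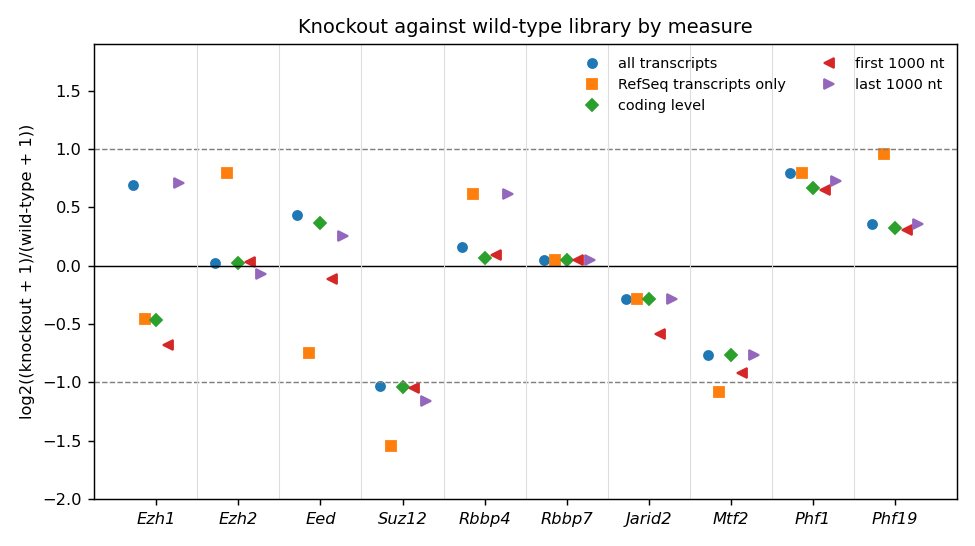
log2 ratio of the knockout to the wild-type library for each PRC2 gene under 5 of the measures, with dashed lines at 2-fold. Suz12 and Mtf2 lie below 0 and Phf1 and Phf19 above 0 under each of them, while Ezh1 and Eed lie on both sides.

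The promoters were searched for the 8-base words of the E2F factors, which drive cell-cycle genes and are known to activate PRC2 genes (TTTCGCGC, TTTGGCGC, TTTCCCGC and TTTGCCGC, both strands). All 10 members matched the RefSeq promoter table, with 12 windows of 300 bases on GRCm38.p6, the build also called mm10. A word was found in 3 of the 12, those of Ezh2, Suz12 and Phf19, at positions 4, -219 and -208 from the start, against 2.26% of 32851 promoters. Each of these words holds a CG. The median promoter holds 7 CG, fewer than the main start of any member, and the shares were not matched for CG content. No enrichment of the words is read from them. A match is a description of the letters and not a bound site. The Suz12 window (chr11:79992856-79993155, plus strand, 250 bases before to 50 after the start) is shown as that of the member with the largest difference, with its word in capitals.
Suz12 start: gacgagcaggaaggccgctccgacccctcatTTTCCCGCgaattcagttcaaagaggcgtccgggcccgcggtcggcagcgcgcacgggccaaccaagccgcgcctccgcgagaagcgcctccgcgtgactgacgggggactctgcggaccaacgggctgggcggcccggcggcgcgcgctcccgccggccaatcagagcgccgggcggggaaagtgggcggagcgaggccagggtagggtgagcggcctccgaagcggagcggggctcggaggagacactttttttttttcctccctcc
This window has 41 CG, more than 96.5% of promoters, so the gene starts in CG-rich sequence. The main starts of the other members hold 17 (Eed) to 39 (Rbbp4) CG, and a second Mtf2 window, whose transcript was listed at 0 in both libraries, holds 2.

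Other genes of the pathway were taken from lists of known function. Beside them, 66% of all genes were higher in the knockout library, with a median log2 ratio of 0.22. At least 2-fold apart were 11.2% of all genes, 7.67% higher and 3.49% lower. With lists this short the counts are coarse, and nothing particular to a list is read from them. Of 5 accessory and inhibitory proteins, 2 were higher and 3 lower, 1 of them at least 2-fold, with a median log2 ratio of -0.16. Aebp2, the zinc-finger partner found with JARID2, had 31.5 and 14.4 FPKM (-1.08), and was under 2-fold apart per coding base (-0.91) and per exon base (-0.52). Ezhip, an inhibitor of the complex that is expressed in gonads, had 8.47 and 15.2 FPKM (0.77). Lcorl, of the family that supplies PALI proteins, had 5.47 and 2.53 FPKM (-0.88, -1.09 per coding base and -0.02 per exon base), its relative Lcor had 18.4 and 19.1 FPKM (0.05, and -0.54 per exon base), and Epop had 4.85 and 4.25 FPKM (-0.16). Aebp2 and Jarid2, which work in the same form of the complex, were both lower by summed FPKM (-1.08 and -0.29), as were Suz12 and Mtf2. The subunits Eed, Rbbp4 and Rbbp7 were higher by that measure (0.43, 0.16 and 0.05). Nothing about a form of the complex is read from these genes.

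Of the 5 enzymes that remove the mark or acetylate the same lysine, 4 were lower, Kdm6b by -0.00201 only, and the median was -0.69. The acetyltransferases Ep300 and Crebbp had 24.4 and 12.1 FPKM (-0.96) and 23.2 and 14.04 FPKM (-0.69). Uty, a Y-linked relative of the demethylases, had 4.57 and 1.75 FPKM (-1.02), the single one at least 2-fold apart. The demethylases Kdm6a (7.18 and 10.1 FPKM, 0.44) and Kdm6b (25.8 and 25.8 FPKM, -0.00201) were lower by the coding level, at -1.04 and -1.02. For this pair, as for Ezh1, the summed FPKM and the coding level thus gave different answers.

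Among 4 CBX proteins reported here, readers of the mark in Polycomb repressive complex 1, the median was 0.23, with 3 higher and 1 lower. Cbx2, the most abundant, had 36.5 and 29.9 FPKM (-0.28), Cbx7 had 14.8 and 22.9 FPKM (0.60), Cbx6 had 13.1 and 15.6 FPKM (0.23) and Cbx8 had 14.4 and 16.9 FPKM (0.22). Of 4 genes of PR-DUB, which removes ubiquitin from histone H2A, 2 were higher and 2 lower with a median of 0.00364. Bap1, its catalytic subunit, had 42.8 and 52.9 FPKM (0.30). Its partners Asxl1, Asxl2 and Asxl3 had 38.9 and 40.8, 7.17 and 4.02, and 1.84 and 1.72 FPKM.

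Genes known as PRC2 targets in other cells were mostly low. Of 39 Hox genes, 19 reached 1 FPKM in at least 1 library. Of these 17 were higher in the knockout library and 2 lower, with a median log2 ratio of 0.33 beside 0.22 for all genes, of which 66% were higher, and 1 was at least 2-fold apart. The summed somatic markers were higher in the knockout library too, and their part in these values was not tested. The Hox gene at least 2-fold apart by summed FPKM was Hoxb9, at 1.83 and 5.55 FPKM (1.21, and 2.06 per coding base). Hoxd4 had 6.57 and 3.02 FPKM (-0.91), Hoxc13 had 0.137 and 1.03 FPKM (0.83) and Hoxc9 had 1.24 and 2.78 FPKM (0.75). Per coding base these differences were smaller (-0.24, 0.38 and 0.40). By that measure Hoxd8 (1.15) and Hoxd9 (1.04) were also at least 2-fold higher, and Hoxb2 was lower (-0.28). A gene that passed the filter through the library where it is high had to differ, so these counts describe 19 genes and not the Hox family. Of 26 other developmental regulators reported here, 8 were measured, 4 higher and 4 lower, with a median of 0.09. Of the lower ones, T and Pax7 were higher per coding base (0.14 and 0.13). The limit of the filter holds here too, as Gsc passed only through the knockout library and Irx3 only through the wild-type library. Gsc had 0.373 and 3.80 FPKM (1.81) and Lhx2 had 3.72 and 5.68 FPKM (0.50), while Irx3 had 2.14 and 0.620 FPKM (-0.95) and Tbx3 had 3.08 and 1.57 FPKM (-0.67).

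As EZH2 and EED are known to vary with the cell cycle, 15 proliferation genes were set beside the members. Of these 5 were higher and 10 lower, none at least 2-fold apart, with a median of -0.04 beside 0.22 for all genes and summed levels of 1027 and 1041 FPKM. Mki67, a marker of cycling cells, had 38.3 and 20.6 FPKM (-0.86), and the kinase gene Bub1 had 31.4 and 23.6 FPKM (-0.40). Cdk1 had 42.7 and 56.3 FPKM (0.39). Mcm2, of the replication helicase, had 86.6 and 143.1 FPKM (0.72) but a log2 ratio of -0.12 by the coding level.

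**Figure D5:**
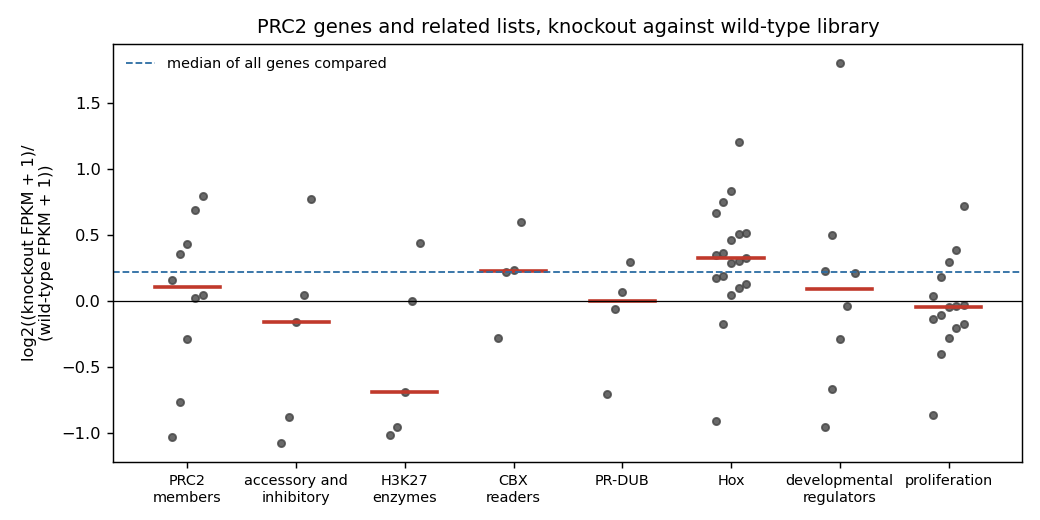
log2 ratio of the knockout to the wild-type library for each measured gene (points) of the PRC2 members and of 7 related lists, with list medians in red, and the median of all genes compared as a dashed line. The 5 H3K27 enzymes have the lowest median, -0.69, and the 19 measured Hox genes the highest, 0.33.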

How the data were processed

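RNA was poly(A)-selected, fragmented, copied with random primers and sequenced as paired ends on a HiScanSQ, per the labels' protocols. CASAVA 1.9, TopHat2 2.0.8, Cufflinks 2.1.1 and build mm10 are named, without settings, per the submitters' processing notes. Each file the authors deposited is a transcript annotation that gives an FPKM, bounds and coverage for 30073 RefSeq transcripts and for models assembled from that library alone. The deposited FPKM was used unchanged, and the coverage only as an alternative. The deposited score column was not used. Counts are not in the files used here, so depth is unknown. The median coverage per FPKM was 3.13 for wild-type and 3.45 for knockout RNA.

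RefSeq identifiers received symbols by accession (of 30079, 29451 from the RefSeq table and 177 from GENCODE tables) or by exon overlap with GENCODE M21 (438), and 13 had none. A model of at least 300 nt was added to the gene with which it shared most exon bases on its strand. Genes of 1 FPKM or more in at least 1 library (13792) were compared with a pseudocount of 1. The 6 measures were the summed FPKM, RefSeq transcripts only, and the mean summed FPKM per exon base, per coding base (chosen after seeing the data) and over 1000 nt at either end. Named were all members, Dnmt3l, every gene of lists of 6 or fewer and up to 4 of the largest ratios in longer lists. Some genes of the longer lists were also named for their values per coding base. A few genes of these lists are not reported here and were left out of their counts and medians. The members and lists were chosen with earlier results of these data known. Alternatives were other pseudocounts, filters, scalings and model rules. The computation was tested on simulated data. Python 3.11.15 and numpy 2.4.6 were used, and matplotlib 3.10.9 for plots.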

Additional observations from a re-analysis of the deposited data

Results flagged for a closer look

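An unspliced model of 544 nt without a strand lay in an intron of Ezh1 in the knockout library, at 3.22 FPKM (bounds 1.44 to 3.92). It was not counted for Ezh1. It stands out because no model of 300 nt or more lay there in the wild-type library, which had a model of 275 nt in the gene at 7.51 FPKM, above its own upper bound of 6.05 FPKM.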

How the results depend on the processing

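Over 13 alternatives, Suz12 (-1.88 to -0.87) and Mtf2 (-1.08 to -0.16) stayed lower, and Phf1 (0.50 to 0.98) and Phf19 (0.12 to 0.96) higher, in the knockout library. The direction changed in 4 alternatives for Ezh1, 5 for Ezh2, 3 each for Eed, Rbbp4 and Rbbp7, and 1 for Jarid2. The median of the members, 0.103 as reported, became -0.102 when centred on the median gene, -0.0932 with upper-quartile scaling, -0.197 when scaled to the total after removing the top 50 genes by abundance, -0.120 from RefSeq transcripts only, -0.0406 over the 5′ end and 0.247 from coverage. The number of members at least 2-fold apart, 1 as reported, was 0 with a pseudocount of 5 and from coverage, 2 when scaled to the total and from RefSeq transcripts, where Mtf2 joined Suz12, and 4 at 1.5-fold. The share of all genes at least 2-fold apart, 11.2% as reported, was 6.87% with no filter. From RefSeq transcripts only, Ezh2/Ezh1 was 0.224 (wild-type) and 0.583 (knockout), Rbbp7/Rbbp4 8.84 and 5.87, Mtf2/Phf1 0.618 (knockout) and Mtf2/Phf19 37.6 (wild-type). At the exon level Ezh2/Ezh1 was 0.583 (knockout) and Rbbp7/Rbbp4 2.07 and 2.03, and at the coding level, chosen after seeing the data, Ezh2/Ezh1 was 0.928 (knockout). Counting fewer models or fewer bases is what these measures change by construction, and for the scalings the cause was not tested. No paired analysis was possible because there was 1 library per genotype and the labels carry no replicate numbers, and no library could be left out.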
